A study of Mus musculus with 19 samples.

Results

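The 10 genes described here, Abcd2, Abcd3, Acox3, Ehhadh, Hsd17b4, Acaa1a, Scp2, Ech1, Eci2 and Pex11a, encode proteins that carry fatty acids into peroxisomes, oxidise them there or enlarge the peroxisome population. The rule that picks them from the 18820 gene symbols on the array uses gene symbols only, although earlier results of these data were known when the set was proposed. All 10 were measured, by 11 probe sets in total, and for the 1 gene with a pair of probe sets, Acox3, the brighter one by mean over all arrays was used. No filter on low values was applied, so every member entered every test.

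RNA came from differentiated 3T3-L1 cells, an established mouse fibroblast line that turns into fat-storing adipocytes under hormonal induction, and was hybridised to 19 Affymetrix Mouse Gene 1.1 ST arrays. From day 7 the medium held no serum, and on day 8 a 48 h exposure to 1 acid at 250 µM began. The acids were palmitic acid (PA, 16 carbons and 0 double bonds, n = 4), palmitoleic acid (PMA, which the sample titles abbreviate as PMO, 16 carbons and 1 double bond, n = 4), stearic acid (SA, 18 carbons and 0 double bonds, n = 4) and oleic acid (OA, 18 carbons and 1 double bond, n = 3). Control cells (n = 4) were given ethanol and 2% albumin, which the acid-treated cells had as well, so acid-treated and control cells differ by the acid. Every group came from the same line and the same insulin-containing medium. Arrays of 1 group are named biological replicates by the submitters, without word on whether they were differentiated separately, and the p-values measure the spread between them.

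Values are log2 RMA expression, so a difference of 1 is a doubling. Array medians over all probe sets lay between 5.23 and 5.43, and every pair of arrays correlated at 0.992 to 0.999 across gene symbols. PA replicates 2 and 4 stood apart from the other arrays on the first principal component (31.2% of the variance) and PMA replicates 1 and 4 on the second (13.7%). The 11 measured adipocyte markers had a median percentile of 99.3 among all genes by mean level, with array means of 11.27 to 11.41 in all groups, whereas the 8 macrophage markers had 26.3 and the 6 hepatocyte markers 19.8. Of the adipocyte markers 0 of 11 passed with any acid against control, the lowest value being Adig at -0.43 with OA (adjusted p = 0.143), and 1 (Plin1) passed over the 5 groups (adjusted p = 0.0495). The 10 measured preadipocyte and fibroblast markers were also bright, with a median percentile of 93.2. Their array means were 9.09 to 9.15 in control, 9.07 to 9.24 with PA, 9.21 to 9.33 with PMA, 9.15 to 9.20 with SA and 9.17 to 9.25 with OA, and those of PMA and OA lay above all control arrays. Of these 10 markers 1 (Col1a1, 0.26, adjusted p = 0.0463) passed with PMA against control, beside 0.266% of all genes. In that comparison 6 had an unadjusted p under 0.05, beside 16% of all genes. With the other acids 0 passed, and over the 5 groups 1 did (Dlk1, adjusted p = 0.0475), beside 1.47%. With PA, SA and OA, 1, 2 and 4 had an unadjusted p under 0.05, beside 15.4%, 8.53% and 11.6%. In PA against PMA 0 passed, beside 0.962%, and 6 had an unadjusted p under 0.05, beside 17.7%. Of these markers 4 were lower with PA than with PMA without overlap, beside 7.09%. Their median difference in that pair was -0.13, and that of all genes was -0.03. Of 8 brown or beige markers 1 (Cidea) rose with OA (0.43, adjusted p = 0.0209), beside 0.861% of all genes, and also passed over the 5 groups (adjusted p = 0.0235). Of the macrophage markers 1 (Cd68) passed over the 5 groups (adjusted p = 0.0154). These marker genes are named because they passed, after their values were seen. The part of these markers in the results was not tested. In RNA of whole cultures, fewer cells of a type and less RNA per cell cannot be told apart.

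Peroxisomes shorten fatty acids that mitochondria handle poorly, above all very long-chain, branched and dicarboxylic ones. Acyl-CoA enters through ABC transporters of the peroxisomal membrane, an acyl-CoA oxidase takes the first step and passes electrons to oxygen, a bifunctional enzyme hydrates and dehydrogenates the product, and a thiolase cleaves off acetyl-CoA. The shortened chains leave as carnitine esters or free acids for mitochondria. In rodent liver many of these genes are classical targets of PPARα, a nuclear receptor activated by fatty acids and fibrates, and adipocytes carry the related receptor PPARγ at high level.

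None of the 10 genes passed the test in any of the 8 comparisons between groups, which 0% to 0.962% of all genes passed, or in the test of any difference among the 5 groups, which 1.47% passed (limma, Benjamini-Hochberg adjustment over all gene symbols, threshold 0.05). Over the 40 differences between an acid and control, the values ran from -0.15 (Scp2 with PA) to 0.19 (Ehhadh with OA), with standard errors of 0.05 to 0.09. The 95% intervals of all 40 stayed between -0.32 and 0.37, which is 0.80-fold to 1.29-fold. The smallest adjusted p was 0.203 (Acox3 with PMA), and 5 of the 40 had an unadjusted p under 0.05. These p-values do not show that the genes were alike in the groups. Each 95% interval gives a range for 1 difference between group means, and the intervals were not adjusted over the 40 values.

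**Figure D1:**
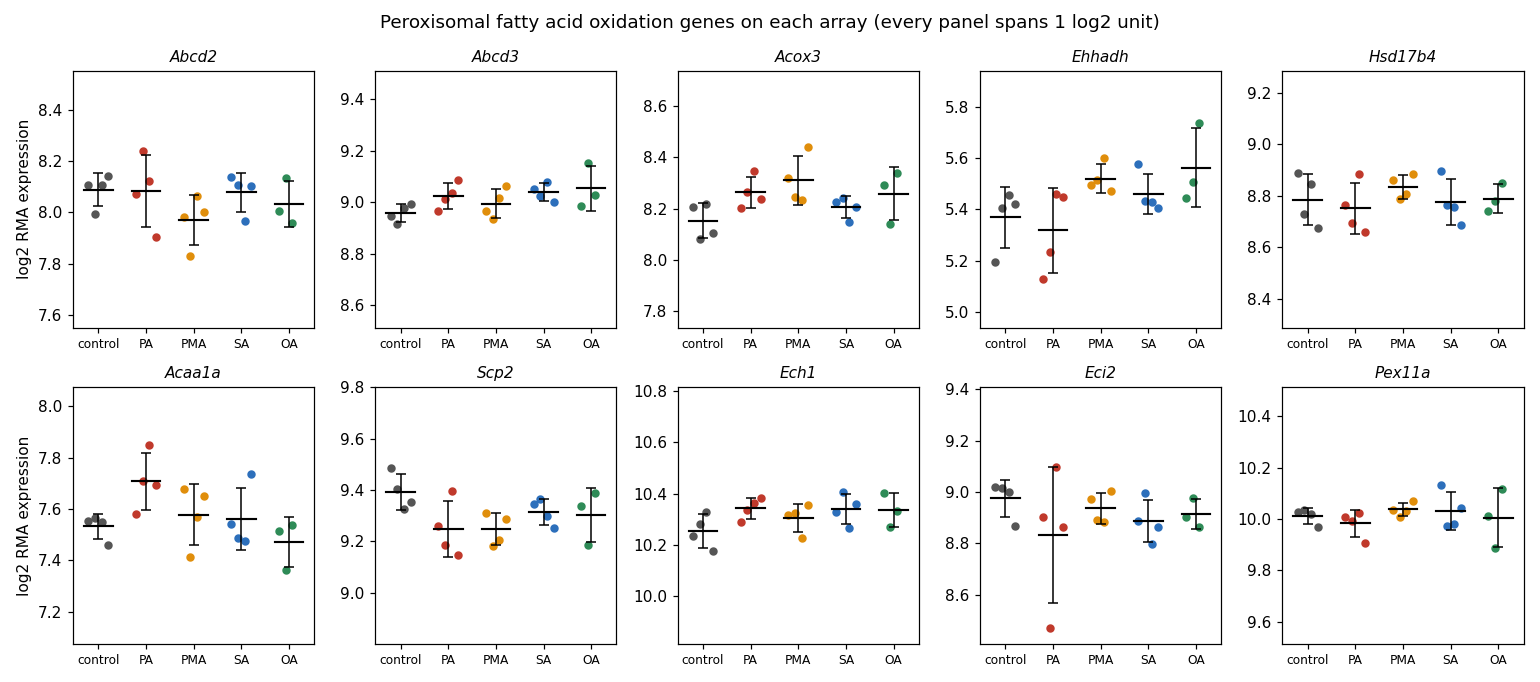
Log2 RMA expression of the 10 peroxisomal genes (y axis, 1 panel per gene) in control cells and in cells given PA, PMA, SA or OA (x axis). Each point is 1 array, and bars show the mean and SD of 4 arrays (3 for OA). In the panels of Acox3, Ehhadh, Acaa1a, Scp2 and Abcd3 an acid group does not overlap control, although the gaps are small. The means of Ehhadh and Acaa1a spread most, over 0.24 each.

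The members' counts can be set beside those of all genes. With PA, 0 of 10 members passed, as did 0% of all genes, and 2 members had an unadjusted p under 0.05 against 15.4% of genes. With PMA, 0 of 10 passed against 0.266% of genes, and 2 had an unadjusted p under 0.05 against 16%. With SA, 0 of 10 passed against 0.165% (0 unadjusted against 8.53%), and with OA 0 of 10 against 0.861% (1 unadjusted against 11.6%). Over the 5 groups 0 of 10 passed against 1.47% of genes, and 1 had an unadjusted p under 0.05 against 18.4%. So few genes passed in all that 0 of 10 members is near the background. The median difference from control of the members was -0.02, 0.04, 0.02 and 0.00 with PA, PMA, SA and OA, and that of all genes was 0.03, 0.06, 0.02 and 0.02.

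Groups that did not overlap were counted in the same way. With PA, 1 member (Acaa1a) was higher in every array than in control, beside 3.9% of all genes, and 0 were lower, beside 1.65%. With PMA 2 were higher (Acox3 and Ehhadh), beside 9.29%, and 1 was lower (Scp2), beside 1.3%. With SA 1 was higher (Abcd3), beside 4.88%, and 0 were lower, beside 2.5%. With OA 0 were higher or lower, beside 9.72% and 4.63%. The median absolute difference of the members was 0.08, 0.05, 0.06 and 0.07 with PA, PMA, SA and OA, against 0.07, 0.07, 0.05 and 0.06 for all genes.

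All unadjusted p-values under 0.05 belonged to 4 members, Acox3, Ehhadh, Acaa1a and Scp2. Their promoters are printed to show the sequence before their starts, each as the 250 bases before the RefSeq start site on the gene's strand (5′ to 3′, GRCm38.p6). Capitals mark, on either strand, the GC box, the CCAAT box and the nuclear receptor hexamer that are spelled out after them.
Acox3 (chr5:35582784-35583033, plus strand): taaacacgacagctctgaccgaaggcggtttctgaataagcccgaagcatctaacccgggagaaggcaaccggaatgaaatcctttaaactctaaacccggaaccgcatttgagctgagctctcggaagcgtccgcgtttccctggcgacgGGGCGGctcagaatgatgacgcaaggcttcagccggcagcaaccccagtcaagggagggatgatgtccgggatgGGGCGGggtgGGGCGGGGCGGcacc
Ehhadh (chr16:21787835-21788084, minus strand): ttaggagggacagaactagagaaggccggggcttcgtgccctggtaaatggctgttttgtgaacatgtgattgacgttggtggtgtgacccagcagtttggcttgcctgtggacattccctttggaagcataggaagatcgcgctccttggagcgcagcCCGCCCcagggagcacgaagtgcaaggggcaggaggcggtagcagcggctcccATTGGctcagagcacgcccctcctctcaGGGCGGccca
Acaa1a (chr9:119341044-119341293, plus strand): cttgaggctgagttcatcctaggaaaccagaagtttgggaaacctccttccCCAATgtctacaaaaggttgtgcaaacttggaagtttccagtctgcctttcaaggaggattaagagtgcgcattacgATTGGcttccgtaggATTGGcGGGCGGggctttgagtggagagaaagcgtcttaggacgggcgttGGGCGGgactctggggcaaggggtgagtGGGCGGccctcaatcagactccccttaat
Scp2 (chr4:108118548-108118797, minus strand): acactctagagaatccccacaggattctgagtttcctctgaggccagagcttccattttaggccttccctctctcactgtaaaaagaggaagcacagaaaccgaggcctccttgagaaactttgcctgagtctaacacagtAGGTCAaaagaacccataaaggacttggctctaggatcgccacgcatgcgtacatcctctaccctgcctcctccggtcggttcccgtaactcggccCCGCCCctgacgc

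The RefSeq promoter table held 8 of the 10 genes, with 9 windows because Abcd3 has a pair of starts, and lacked Hsd17b4 and Abcd2. A set of 6 motifs was searched on both strands. AGGTCA repeated in the same direction with 1 base between the copies, the ideal form of the element that PPARs bind with RXR, was in 0 of the 9 windows and in 0.0335% of 32851 promoters of the same length. The single hexamer AGGTCA, which the repeat contains, was in 1 window, that of Scp2 at -109 from the start, and in 14% of all promoters. The GC box GGGCGG was in 6 windows (Acox3, Acaa1a, Ehhadh, Scp2, Ech1 and Eci2) against 32.7% of all promoters, and Acox3 held 4 copies, of which the copies at -15 and -10 overlap. CCAAT was in 3 windows (Acaa1a, Ehhadh and Eci2) against 33.8%. The ETS motif CCGGAAG was in 1 window (Pex11a) against 6.91%, and TATAAA was in 0 windows against 12.4%. A match is a description of these letters and says nothing of binding.

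The importers come first. Abcd2 and Abcd3 are ABC transporters of the peroxisomal membrane that work as dimers, and Abcd3 (also called PMP70) is a common marker of that membrane. Abcd2 read 8.00 to 8.14 in control, 7.90 to 8.24 with PA, 7.83 to 8.06 with PMA, 7.97 to 8.14 with SA and 7.96 to 8.13 with OA. All groups overlapped, and the lowest mean, with PMA, differed from control by -0.12 ± 0.07 (model SE, as for all errors of differences; adjusted p = 0.392). Abcd3 had one of the smallest spreads between replicates, a residual SD of 0.053. It read 8.94, 8.92, 8.98 and 8.99 in control and 9.05, 9.02, 9.08 and 9.00 with SA. Every SA array lay above every control array, yet the difference was only 0.08 ± 0.05 (adjusted p = 0.719). Its mean was highest with OA, at 0.10 above control (95% interval -0.01 to 0.21, adjusted p = 0.517), and without OA replicate 2 at 9.15 that value was 0.05, under the 0.08 of SA. The order from low to high was control, PMA, PA, SA and OA, and no neighbours in it were separated beyond the spread.

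Acox3 is a peroxisomal acyl-CoA oxidase that acts on branched chains and takes the first, oxygen-consuming step. It read 8.21, 8.08, 8.22 and 8.10 in control and 8.32, 8.25, 8.23 and 8.44 with PMA. The values were 8.20, 8.27, 8.35 and 8.24 with PA, 8.23, 8.24, 8.15 and 8.21 with SA, and 8.29, 8.14 and 8.34 with OA. The PMA arrays all lay above the control arrays, whereas the other 3 acids overlapped them. The difference with PMA was 0.16 ± 0.06 (1.11-fold, 95% interval 0.04 to 0.28, unadjusted p = 0.0135, adjusted p = 0.203). Without PMA replicates 1 and 4 it was 0.09 (adjusted p = 0.997), and it was 0.10 when the arrays were further normalised by cyclic loess. The dimmer probe set of Acox3 had differences from control between -0.08 (SA) and 0.04 (PA), with 0.02 for PMA, and none passed.

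Ehhadh and Hsd17b4 encode the bifunctional enzymes, of which Hsd17b4 serves branched chains and bile acid precursors and Ehhadh straight-chain and dicarboxylic acids. Ehhadh was the dimmest member, at the 43.0th percentile of gene symbols by mean, and the file gives no detection call for it. It read 5.19, 5.41, 5.46 and 5.42 in control, 5.13, 5.23, 5.46 and 5.45 with PA, and 5.49, 5.51, 5.60 and 5.47 with PMA. With SA it read 5.58, 5.43, 5.43 and 5.41, and with OA 5.44, 5.51 and 5.74. PMA arrays all lay above the control and the PA arrays, and 1 OA array (5.74) was the highest of the 19. Ehhadh had the smallest p of the members in the test over the 5 groups (F = 3.06, unadjusted p = 0.0389, adjusted p = 0.25). The differences from control were 0.19 ± 0.08 with OA (1.14-fold, adjusted p = 0.363; 0.11 with adjusted p = 0.82 without OA replicate 3), 0.15 ± 0.08 with PMA (adjusted p = 0.346), 0.09 with SA and -0.05 with PA.

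Hsd17b4 was level across the groups. Its arrays read 8.67 to 8.89 in control, 8.66 to 8.89 with PA, 8.79 to 8.88 with PMA, 8.69 to 8.90 with SA and 8.74 to 8.85 with OA. The means of the 5 groups lay within 0.08, and no difference from control left the range -0.03 to 0.05 (95% intervals from -0.16 to 0.18). All 5 groups overlapped.

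The thiolase genes came next, with signs that differed with PA. Acaa1a, the 3-ketoacyl-CoA thiolase of straight chains, read 7.55, 7.57, 7.55 and 7.46 in control and 7.58, 7.71, 7.85 and 7.69 with PA. It read 7.68, 7.41, 7.57 and 7.65 with PMA, 7.54, 7.49, 7.48 and 7.74 with SA, and 7.51, 7.36 and 7.54 with OA. All PA arrays lay above all control arrays, although the gap between 7.57 and 7.58 was small, and the other acids overlapped control. The difference with PA was 0.18 ± 0.07 (1.13-fold, 95% interval 0.03 to 0.32, unadjusted p = 0.0213, adjusted p = 0.265). It was 0.18 as well without PA replicates 2 and 4 (adjusted p = 0.997). Over all alternative settings it ran from 0.13 without PA replicate 3 to 0.22 without PA replicate 1.

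Scp2 encodes a thiolase for branched chains (SCPx) and, from an internal start, sterol carrier protein 2. It read 9.48, 9.40, 9.33 and 9.35 in control, and 9.26, 9.19, 9.39 and 9.15 with PA. With PMA it read 9.31, 9.18, 9.21 and 9.29, with SA 9.35, 9.36, 9.30 and 9.25, and with OA 9.34, 9.19 and 9.39. PMA arrays all lay under the control arrays, and the other acids overlapped control. The control mean was the highest of the 5, and the differences were -0.15 ± 0.06 with PA (adjusted p = 0.275), -0.15 ± 0.06 with PMA (adjusted p = 0.25), -0.08 with SA and -0.09 with OA. Without PA replicates 2 and 4 the PA value was -0.07. The 4 acids share the control arrays, so their like signs are not separate evidence.

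Ech1 and Eci2 encode auxiliary enzymes that move double bonds during the breakdown of unsaturated fatty acids. Ech1 read 10.18 to 10.33 in control, 10.29 to 10.38 with PA, 10.23 to 10.35 with PMA, 10.27 to 10.41 with SA and 10.27 to 10.40 with OA. Its differences from control were 0.05 (PMA) to 0.09 (PA and SA), smallest adjusted p = 0.398, and all groups overlapped. Eci2 read 9.02, 9.02, 9.00 and 8.87 in control and 8.90, 8.47, 9.10 and 8.86 with PA. The PA spread (SD 0.264) rested on replicate 2 at 8.47, which gave a PA difference of -0.14 with it and -0.02 without it. With PMA, SA and OA, Eci2 lay at 8.80 to 9.00 and overlapped control.

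Pex11a encodes a membrane protein that elongates and divides peroxisomes, and it is a PPARα target in rodent liver. It had the narrowest range of group means, 0.05, with arrays at 9.97 to 10.03 in control, 9.91 to 10.02 with PA, 10.01 to 10.07 with PMA, 9.97 to 10.13 with SA and 9.89 to 10.12 with OA. The differences from control were -0.03, 0.03, 0.02 and -0.01 in that order, with intervals from -0.14 to 0.14, and the groups overlapped.

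**Figure D2:**
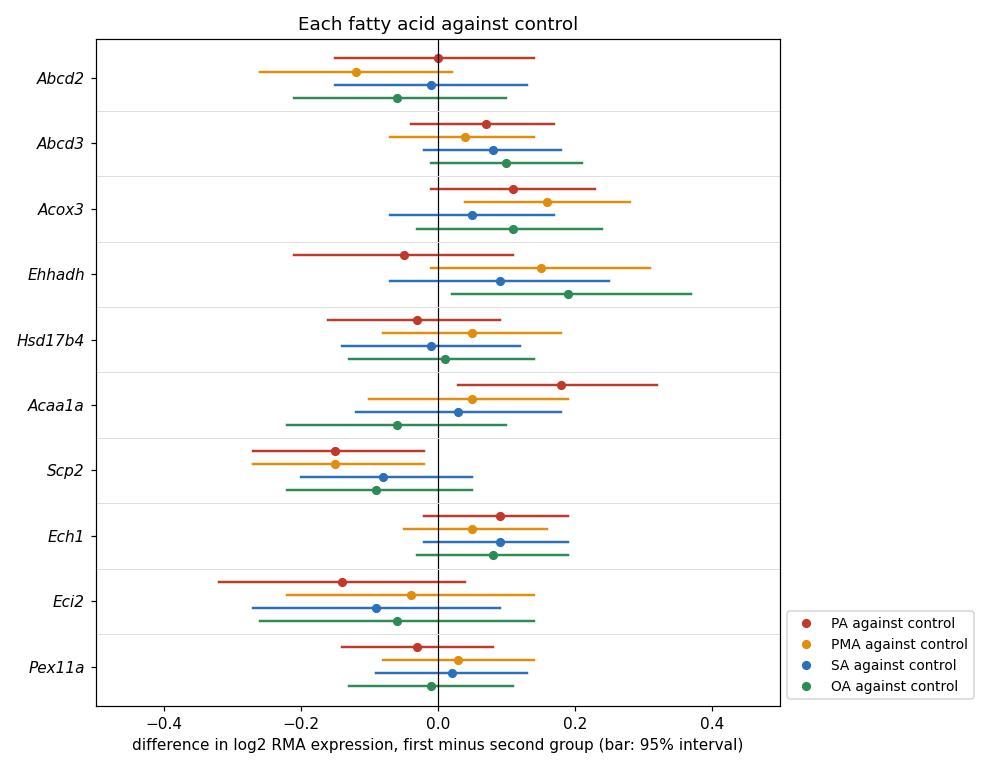
Difference in log2 RMA expression from control (x axis, points) with 95% intervals (bars) for the 10 genes (y axis) and the 4 acids. No point leaves -0.15 to 0.19, and no interval leaves -0.32 to 0.37.

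The acids were next compared with each other at the same dose and time. PA against PMA and SA against OA differ by 1 double bond, and PA against SA and PMA against OA by chain length, 16 against 18 carbons. The 4 pairs gave 40 member values, from -0.20 to 0.15, and none passed (smallest adjusted p = 0.188, adjusted within a pair over all genes). Their 95% intervals stayed between -0.37 and 0.29, which is 0.78-fold to 1.23-fold. The lowest value was Ehhadh with PA against PMA, -0.20 ± 0.08 (0.87-fold, 95% interval -0.37 to -0.04, unadjusted p = 0.018, adjusted p = 0.188), where the PA arrays (5.13 to 5.46) all lay under the PMA arrays (5.47 to 5.60). For the longer saturated and unsaturated pair, SA against OA, the Ehhadh difference was -0.10 (interval -0.28 to 0.07, adjusted p = 1).

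By chain length, the highest value was Acaa1a with PA against SA, 0.15 ± 0.07 (interval 0.00 to 0.29, adjusted p = 0.316), and with PMA against OA it was 0.11 (interval -0.05 to 0.26, adjusted p = 0.698). Arrays overlapped in both. Scp2 was 0.00 (interval -0.13 to 0.13) between PA and PMA, and 0.01 (interval -0.12 to 0.15) between SA and OA. Abcd2 was 0.11 higher with PA than with PMA (interval -0.03 to 0.26, adjusted p = 0.398). The counts of members past the threshold were 0 of 10 in PA against PMA (0.962% of all genes), 0 of 10 in SA against OA (0.0319%), 0 of 10 in PA against SA (0.143%) and 0 of 10 in PMA against OA (0.0531%). Unadjusted p-values under 0.05 were reached by 1 member in PA against PMA (17.7% of genes) and 0 in the others (2.4%, 15.8% and 8.61%). Ehhadh was the 1 member whose groups did not overlap in a pair, lower with PA than with PMA, beside 7.09% of all genes. The other counts of non-overlapping members were 0. For comparison, the first acid was higher for 0.919% of all genes in PA against PMA, 2.13% in SA against OA, 2.73% in PA against SA and 6.98% in PMA against OA, and lower for 2.5%, 2.57% and 1.92% in the last 3 pairs.

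**Figure D3:**
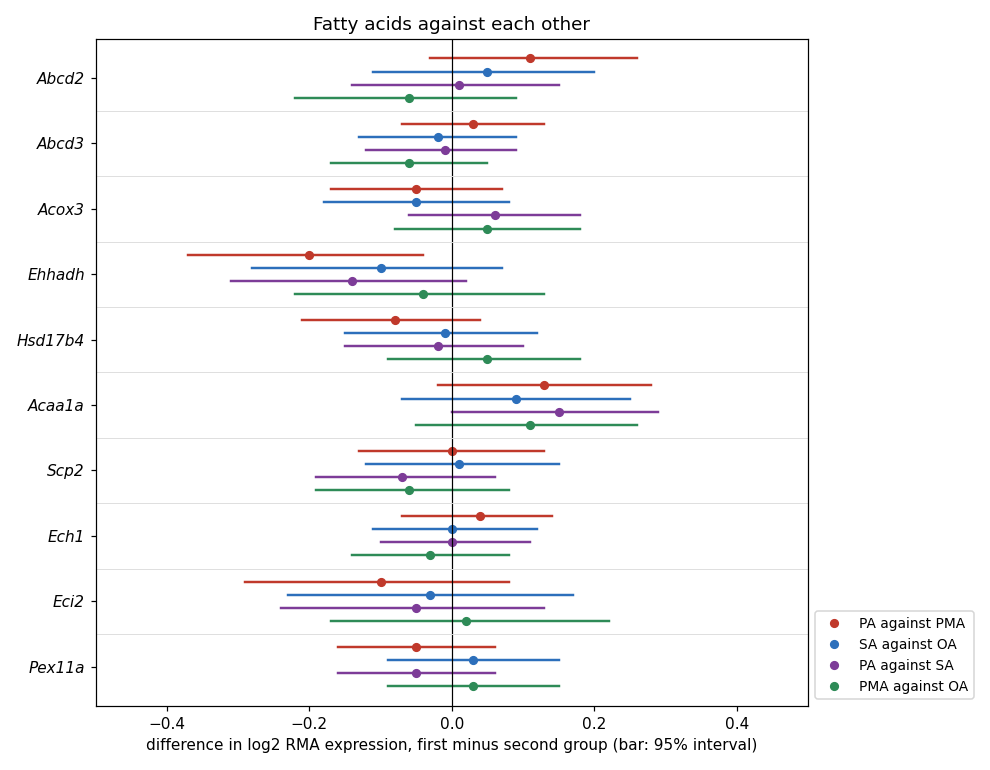
Differences in log2 RMA expression between acids (x axis, first minus second acid) with 95% intervals for the 10 genes (y axis). PA against PMA and SA against OA differ by 1 double bond, the other pairs by chain length. The lowest point is Ehhadh in PA against PMA, at -0.20.

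Other genes of the pathway were taken from lists written with earlier results of these data known, so their counts are descriptions. The first list held 21 measured genes of peroxisomal β-oxidation and import besides the members. Of the 21, 1 rose with OA (Crat), beside 0.457% of all genes, 0 fell, and 0 passed with PA, PMA or SA. Their median difference from control was 0.02, 0.04, 0.03 and -0.01 with PA, PMA, SA and OA. Crat, carnitine O-acetyltransferase, makes acetylcarnitine in peroxisomes and mitochondria. It read 11.44, 11.31, 11.36 and 11.38 in control and 11.69, 11.52 and 11.62 with OA. All OA arrays lay above all control arrays, beside 9.72% of all genes, and the difference was 0.24 ± 0.05 (1.18-fold, adjusted p = 0.0295). The values with SA, PMA and PA were 0.19, 0.12 and 0.08 (adjusted p = 0.133, 0.243 and 0.42). All SA and PMA arrays also lay above all control arrays, beside 4.88% and 9.29% of all genes, and the PA arrays overlapped control. The Crat call was lost when control replicate 2, 3 or 4 or OA replicate 1 or 3 was left out, where adjusted p rose to as much as 0.151, or with only the control and OA arrays (adjusted p = 0.096). With a trended robust spread Crat passed with SA as well. Over the 5 groups it passed with that spread, without the dimmest genes, with cyclic loess, or without OA replicate 2.

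Acox2, the oxidase for bile acid precursors and branched chains, was the other gene of this list to pass, in the test over the 5 groups (F = 10.7, adjusted p = 0.0125), beside 1.47% of all genes. It read 7.36, 7.38, 7.21 and 7.16 in control, 7.34, 7.22, 7.25 and 7.46 with PA, and 7.68, 7.36, 7.46 and 7.57 with PMA. With SA it read 6.89, 7.19, 7.03 and 7.07, and with OA 7.23, 7.17 and 7.05. PMA was highest and SA lowest, and all PMA arrays lay above all SA and OA arrays. No pair of the 8 passed, the smallest adjusted p being 0.117 for PMA against OA (0.37 ± 0.08). Without PMA replicates 1 and 4 together, the adjusted p of the test over the 5 groups was 0.109. Acot12, an acyl-CoA thioesterase, and Acbd5, an acyl-CoA binding protein of the peroxisome surface, did not pass (adjusted p = 0.247 and 0.26 over the 5 groups), but Acbd5 passed in PA against PMA when PA replicate 3 was left out.

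Among 20 measured genes of α-oxidation, ether lipid synthesis and antioxidant defence, 0 passed against control with any acid. Median differences were -0.04, 0.06, 0.03 and 0.08 with PA, PMA, SA and OA. Aldh3a2, a fatty aldehyde dehydrogenase, was lower with PA than with PMA, beside 0.855% of all genes, and the other 19 did not pass in that pair. Aldh3a2 did not pass over the 5 groups (adjusted p = 0.116). Against control it was -0.14 with PA, 0.10 with PMA and -0.06 with SA and with OA (adjusted p = 0.267, 0.367, 0.878 and 0.787). All PA arrays lay under all control arrays, beside 1.65% of all genes, and the other acids overlapped control. It read 8.22, 8.31, 8.36 and 8.24 with PA and 8.56, 8.44, 8.48 and 8.62 with PMA, with no overlap. The difference of this pair was -0.24 ± 0.06 (adjusted p = 0.0393). With cyclic loess the adjusted p was 0.1, and without PA replicates 2 and 4 it was 0.251. Without PMA replicates 1 and 4 it was 0.31, and of the single arrays, leaving out control replicate 1, 3 or 4, PA replicate 1, 2 or 4, or PMA replicate 1, 3 or 4 ended the call. Catalase (Cat), which removes the hydrogen peroxide made by the oxidases, was 0.14 above control with OA and 0.15 with SA (adjusted p = 0.213 and 0.226). With a trended robust spread it passed in both and over the 5 groups. Phyh, the hydroxylase that opens α-oxidation, and Hao2, an oxidase of 2-hydroxy acids, had adjusted p of 0.264 and 0.258 over the 5 groups. Hao2 passed with OA under cyclic loess, but it was dim, at the 12.7th percentile of gene symbols by mean.

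None of the 19 measured genes of peroxisome biogenesis and membrane passed any comparison, with median differences of 0.01, 0.04, 0.01 and 0.00. The smallest adjusted p over the 5 groups was that of Pex13, a docking factor of protein import, at 0.231, and for Pex5l, a relative of the import receptor Pex5, Pex2, a ubiquitin ligase of the import machinery, and Pex7, the receptor for the second type of import signal, it was 0.234, 0.289 and 0.299. The 14 measured regulators (PPARs, partner receptors and coactivators) likewise had 0 past the threshold, with median differences of 0.04, 0.08, 0.07 and 0.10 with PA, PMA, SA and OA. Nearest were Rxrg, a partner receptor of PPARs, with OA (0.27, adjusted p = 0.0611), and Ppargc1a, a coactivator of oxidative genes, in PA against PMA (-0.26, adjusted p = 0.0529). Ppara itself was -0.07, 0.18, 0.00 and 0.13 from control with PA, PMA, SA and OA (adjusted p = 0.691, 0.263, 0.994 and 0.633), and Med1, a Mediator subunit that binds nuclear receptors, had an adjusted p of 0.221 over the 5 groups.

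**Figure D4:**
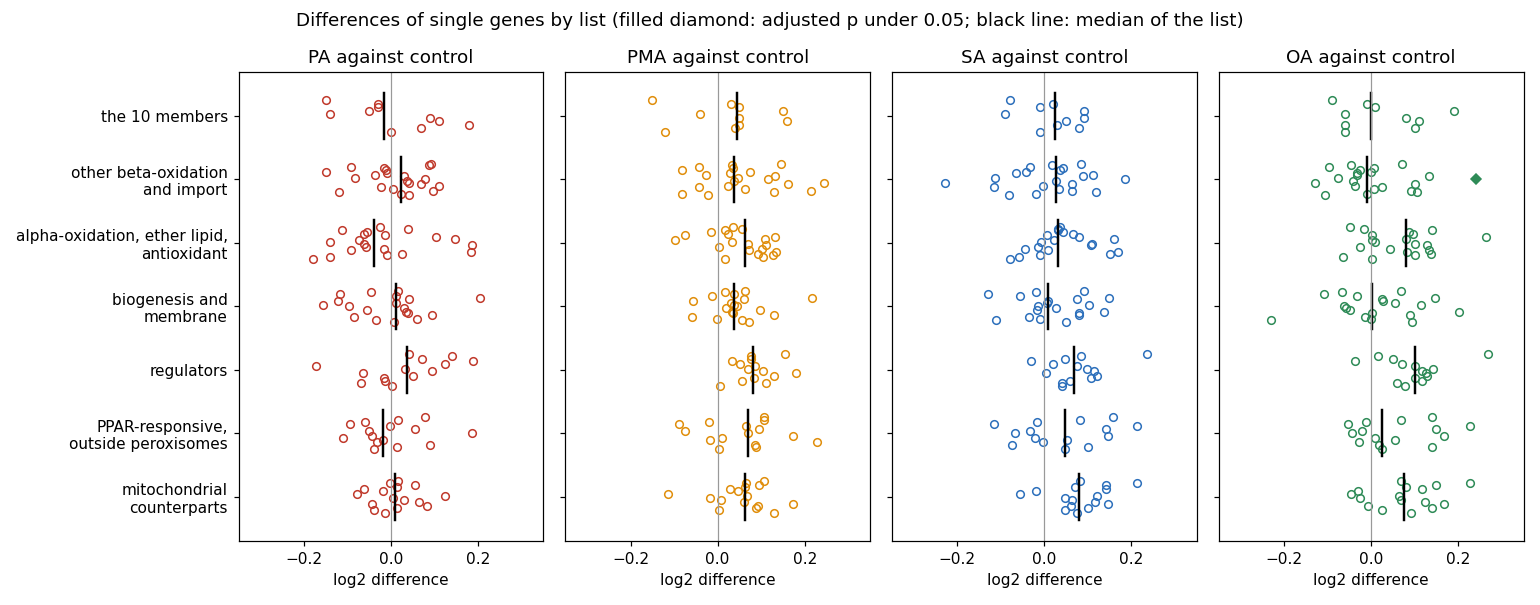
Differences from control in log2 RMA expression (x axis) for the members and 6 gene lists (y axis), with 1 panel per acid, where each point is 1 gene and black lines mark list medians. The medians stay between -0.04 and 0.10, and the filled diamond is Crat with OA, the 1 gene past the threshold.

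Outside peroxisomes, 15 measured PPAR-responsive genes and 16 measured mitochondrial counterparts of the members (7 genes are in both lists) had 0 past the threshold against control with any acid. The median differences of the PPAR-responsive genes were -0.02, 0.07, 0.05 and 0.02 with PA, PMA, SA and OA, and those of the counterparts 0.01, 0.06, 0.08 and 0.07. Cpt1a, which admits long chains to mitochondria, was the 1 gene of both lists to pass elsewhere, lower in PA against PMA (beside 0.855% of all genes) and over the 5 groups (beside 1.47%). It read 9.05, 8.97, 9.09 and 9.07 with PA and 9.25, 9.21, 9.28 and 9.31 with PMA, without overlap. The difference was -0.22 ± 0.05 (adjusted p = 0.0422), and the test over the 5 groups gave an adjusted p of 0.0417. Against control, Cpt1a was -0.04, 0.17, 0.15 and 0.17 with PA, PMA, SA and OA (adjusted p = 0.681, 0.127, 0.346 and 0.191). The PA arrays overlapped the control arrays. All PMA, SA and OA arrays lay above all control arrays, beside 9.29%, 4.88% and 9.72% of all genes. Without PA replicates 2 and 4 the adjusted p of the pair was 0.307, without PMA replicates 1 and 4 it was 0.273, and with cyclic loess 0.1. Of the single arrays, leaving out control replicate 1 or 3, PA replicate 2 or 4, PMA replicate 1, 3 or 4, SA replicate 2 or OA replicate 1 or 3 ended the call of the pair (adjusted p up to 0.145). The call over the 5 groups was lost without any 1 of 13 arrays, at adjusted p up to 0.0875. Hadha and Hadhb, subunits of the mitochondrial trifunctional protein, were 0.15 and 0.23 above control with OA (adjusted p = 0.188 and 0.179). Etfdh, which passes electrons from β-oxidation to the respiratory chain, and the thioesterase Acot2 had adjusted p of 0.198 and 0.143 over the 5 groups.

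**Figure D5:**
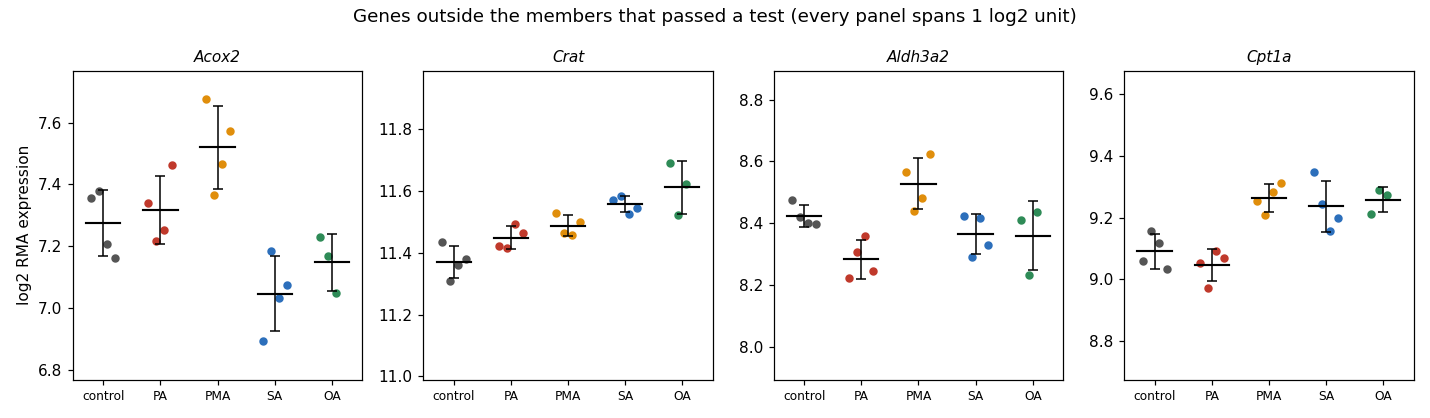
Log2 RMA expression (y axis, each panel 1 unit high) of Acox2, Crat, Aldh3a2 and Cpt1a, the listed pathway genes that passed a test, by group (x axis). Points are arrays, and bars show mean and SD. Acox2 is highest with PMA and lowest with SA, Crat is higher with OA than in control, and Aldh3a2 and Cpt1a are lower with PA than with PMA.

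The genes whose array values followed Ehhadh most closely over the 19 arrays, among 18819 others, were Rdh10 (Pearson r = 0.85), Irf2bp1 (0.82) and Vstm2a (0.81). Ehhadh was taken because it had the smallest p of the members over the 5 groups. The arrays share normalisation and treatment, and the correlations are given as a description with no test.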

How the data were processed

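The authors deposited log2 values for each probe set after RMA, and the submitters' processing notes name affy 1.34.0 and R 2.15.0. RMA corrects background, normalises between arrays and summarises probes, and small differences can depend on it. RNA input was 100 ng per array, with RNA integrity numbers above 9, per the labels. Scan files were not used here. The table held 35556 probe sets, 21218 of them with 1 gene symbol, 1881 with several and 12457 unnamed. Only those with 1 symbol were used, collapsed to the brightest probe set for each of 18820 symbols.

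With limma 3.58.1 (R 4.3.3), lmFit fitted 1 mean per group over all 19 arrays, and eBayes, neither trended nor robust, moderated the spread that the 5 groups shared. It gave 8 contrasts and a moderated F test. Tests were two-sided, with Benjamini-Hochberg adjustment over all symbols and a threshold of 0.05. Errors are model standard errors and intervals are 95%. The fit was tested on simulated data.

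The members and lists were chosen with earlier results of these data known. Named genes were all members, each list's genes past the threshold, and otherwise up to 4 per list with the smallest F-test p. Alternatives were leaving out the dimmest genes (lowest 1 in 3), averaging probe sets, cyclic loess, a block for replicate number, a spread with trend and robust weights, fits to the compared arrays alone, and leaving out single arrays or those that stood apart. The number of arrays limits the precision. Figures were drawn with matplotlib 3.10.9.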

Additional observations from a re-analysis of the deposited data

Results flagged for a closer look

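Single arrays lay far from the rest of their group by Dixon's criterion in 5 of 124 gene-and-group sets of 4 arrays, of which chance gives about 1 in 20. In control, replicate 4 was low for Acaa1a (7.46, others 7.55 to 7.57) and for Eci2 (8.87, others 9.00 to 9.02), and replicate 3 was low for Ppara (5.62, others 5.77 to 5.79). With SA, replicate 1 was high for Ehhadh (5.58, others 5.41 to 5.43). With PA, replicate 2 was low for Pex2 (6.31, others 6.82 to 6.92).

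The responses to PA and PMA differed for Aldh3a2, by -0.24 (adjusted p = 0.0393), and for Cpt1a, by -0.22 (adjusted p = 0.0422), in the limma contrast of the acids themselves. Of 27 alternative settings, the Aldh3a2 call held in 13 and the Cpt1a call in 12, and both were lost with cyclic loess.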

How the results depend on the processing

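No member passed the threshold under any of 27 alternative settings, in 251 counts over the 9 tests, the reported ones included. The smallest adjusted p of a member was 0.0875 (Acaa1a with PA, without PA replicate 1). At least 28 of 80 member differences, none of them called, changed sign under at least 1 setting. Signs were read from rounded values, so a difference rounded to 0.00 was not counted. The number of arrays limits precision, and the dimmest member, Ehhadh, has no detection call in this file.

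The background counts of genes past the threshold moved more. In the order PMA, SA, OA against control, PA against PMA, PA against SA, PMA against OA and any difference among the 5 groups, they were 50, 31, 162, 181, 27, 10 and 276. They became 199, 48, 255, 430, 41, 16 and 438 without the dimmest genes, and 213, 98, 337, 489, 63, 30 and 647 with a trended robust spread, which gave 2 for PA against control (0 in the reported fit). With only the arrays compared they were 21 (PMA), 102 (OA), 22 (PA against PMA), 2 (PA against SA) and 4 (PMA against OA). Without PA replicates 2 and 4 they were 1 (PA), 127 (PMA), 64 (SA), 264 (OA), 54 (PA against PMA), 2 (PA against SA) and 18 (PMA against OA). Without PMA replicates 1 and 4 they were 3 (PMA), 30 (PA against PMA), 2 (PMA against OA) and 129 (any difference). Cyclic loess gave 86 (SA), 284 (OA), 114 (PA against PMA), 43 (PA against SA) and 20 (PMA against OA). It moved the split of higher and lower genes from 36 and 14 to 14 and 54 with PMA, from 20 and 11 to 45 and 41 with SA, and from 20 and 161 to 55 and 59 in PA against PMA. In SA against OA, PA against SA and PMA against OA the split went from 6 and 0 to 6 and 1, from 8 and 19 to 17 and 26, and from 8 and 2 to 11 and 9. The cause was not tested.

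Leaving out single arrays gave 0 members in every case. Gene counts ran from 0 to 510 (PA, highest without PA replicate 1), 8 to 129 (PMA, lowest without control replicate 4, highest without PA replicate 2), 4 to 59 (SA, lowest without control replicate 4 or SA replicate 3, highest without PA replicate 2) and 22 to 243 (OA, lowest without OA replicate 3, highest without PA replicate 2). They ran from 49 to 638 (PA against PMA, without PA replicate 4 and 3), 0 to 7 (SA against OA, without OA replicate 3 and PA replicate 2), 9 to 499 (PA against SA, without SA replicate 2 and PA replicate 1), 4 to 19 (PMA against OA, lowest without PMA replicate 1 or 4 or OA replicate 3, highest without PMA replicate 2) and 146 to 544 (any difference, without OA replicate 3 and PA replicate 1).

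Same-numbered arrays did not deviate together (36 pairs, r from -0.43 to 0.40, median 0.01, with 6 pairs over 0.1), and 4 of 19 arrays correlated best with their own number, so the numbers were not taken to pair samples. With the replicate block 0 members passed, and gene counts were 1 (PA), 16 (PMA), 72 (OA), 5 (PMA against OA) and 170 (any difference). Under the block Crat with OA had an adjusted p of 0.0521, Aldh3a2 and Cpt1a in PA against PMA had 0.0514 and 0.0676, and Cpt1a over the 5 groups had 0.106.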
